A study of Mus musculus with 86 samples.

Results

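Mbp, Pmp22, Mag, Prx, Sox10, S100b and Egr2 are genes of myelinating Schwann cells, the glia that wrap the axons of peripheral nerve. Their mRNA levels were read here in 2 hind-leg muscles of mice given dexamethasone. The 7 genes are a named marker set for Schwann cells and myelin; no threshold on a measured value chose them, but the set was drawn up with earlier results of these data known. They are 7 of the 42807 genes in the table, and all 7 passed the filter on low counts in the gastrocnemius (GA, 14484 genes tested), in the soleus (SO, 14811 genes) and in the fit of both muscles (15327 genes).

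A muscle holds intramuscular nerve branches, in which large motor and sensory axons are myelinated and thin axons are bundled without myelin. Sox10 is the transcription factor that sets and keeps Schwann cell identity, and Egr2 (also called Krox20) is the one that switches Schwann cells to myelination. The myelin proteins are made by the same cell that wraps the axon. Prx and Mag are largely made by myelinating glia, whereas Pmp22, S100b and Egr2 are also made by other cells, Egr2 among them by macrophages. In such bulk RNA, more cells of a type and more RNA per cell cannot be told apart.

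The mice were male C57BL/6N, 10 weeks old before acclimatization. Those of 8 groups were injected intraperitoneally with the glucocorticoid drug dexamethasone (DEX), given to waste muscle, at 25 mg/kg a day for 10 days. Of these, 6 groups were also gavaged with Jakyak-gamcho-tang (JGT), a water extract of peony root and liquorice root, at 100 or 400 mg/kg a day. The root weights stood at 2:1 in JGT02, 1:1 in JGT03 and 1:2 in JGT04. Another group was gavaged with resveratrol at 200 mg/kg a day, and the DEX group was gavaged with buffer. The non-treated mice received buffer by both routes. Extracts and resveratrol were suspended in carboxymethylcellulose, which the DEX and non-treated mice did not receive, so a treatment and its vehicle cannot be told apart. Each muscle had 43 libraries in 9 groups, with 4 mice in the DEX and JGT04 400 mg/kg groups and 5 in each of the other 7. Total counts per library were 18.8 M to 34.6 M, with a median of 27.5 M.

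Of the 7 genes, 4 encode proteins of the myelin sheath or its membrane. Mbp encodes myelin basic protein, which holds the inner faces of the myelin membrane together (GRCm38 chr18:82475146-82585637, plus strand). Pmp22 encodes a membrane protein of compact myelin (chr11:63128982-63159547, plus strand). Mag encodes an adhesion molecule of the Schwann cell membrane next to the axon (chr7:30899176-30914873, minus strand). Prx encodes periaxin, a scaffold between the outer Schwann cell membrane and the basal lamina (chr7:27499324-27520214, plus strand). The transcription factors are Sox10 (chr15:79154908-79165240, minus strand) and Egr2 (chr10:67535475-67542188, plus strand). S100b encodes a calcium-binding protein used as a Schwann cell marker (chr10:76253853-76261159, plus strand). Exons of Prx overlap those of Gm15541 on the other strand, and whether the counting used strand is not given in the sources used here. At most 1.45% of the 31-base words of a member, in Mag, were found in another gene's transcripts.

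The order of the levels was compared per kilobase of exon. In SO of non-treated mice, Pmp22 stood highest at a mean of 23.5 CPM per kb (CPM, counts scaled to library size), followed by Mbp at 3.13, Prx at 1.37, S100b at 0.899, Sox10 at 0.652, Egr2 at 0.284 and Mag at 0.204 CPM per kb. In GA of non-treated mice the means were 24.1 CPM per kb for Pmp22, 4.98 for Mbp, 2.66 for Prx, 1.31 for S100b, 0.987 for Sox10, 0.318 for Mag and 0.273 for Egr2. The 5 highest genes stood in the same order in both muscles. Mag and Egr2, the lowest 2, had means that differed by less than their spread between mice, with coefficients of variation of 45.4% and 33.6% in SO, and so did S100b and Sox10 in GA, with 34.6% and 10.0%. Mag was the most shallowly counted, with 4 to 95 counts per SO library and 15 to 64 per GA library.

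The stretch of 250 bases before the annotated start was read for the genes listed in the RefSeq promoter table of GRCm38.p6, which held 5 of the 7 and whose starts can differ from those of GENCODE. They were searched on both strands for the SOX core ACAANG, the kind of site that Sox10 binds, and for the EGR site GCGNGGGNG, the kind that Egr2 binds. The upstream stretches of 4 genes are printed because they differ in these letters, with matches in capitals and the gene's strand read 5′ to 3′. They lie at chr7:27499074-27499323 for Prx, chr7:30914864-30915113 for Mag, chr10:76253586-76253835 for S100b and chr10:67535249-67535498 for Egr2.
Prx: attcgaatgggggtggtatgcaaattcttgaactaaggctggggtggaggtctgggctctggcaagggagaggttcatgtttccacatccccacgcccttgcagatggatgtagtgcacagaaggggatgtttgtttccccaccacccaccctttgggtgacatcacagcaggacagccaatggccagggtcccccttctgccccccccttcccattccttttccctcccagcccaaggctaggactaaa
Mag: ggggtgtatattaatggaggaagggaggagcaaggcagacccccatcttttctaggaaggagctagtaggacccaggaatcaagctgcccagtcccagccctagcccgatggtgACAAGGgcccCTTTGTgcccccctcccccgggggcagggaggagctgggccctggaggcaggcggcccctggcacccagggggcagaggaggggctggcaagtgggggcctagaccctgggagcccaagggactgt
S100b: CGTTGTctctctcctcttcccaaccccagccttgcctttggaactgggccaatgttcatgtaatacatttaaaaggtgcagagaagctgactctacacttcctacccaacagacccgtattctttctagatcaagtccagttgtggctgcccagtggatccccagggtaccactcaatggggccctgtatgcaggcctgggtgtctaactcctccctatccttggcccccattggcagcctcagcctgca
Egr2: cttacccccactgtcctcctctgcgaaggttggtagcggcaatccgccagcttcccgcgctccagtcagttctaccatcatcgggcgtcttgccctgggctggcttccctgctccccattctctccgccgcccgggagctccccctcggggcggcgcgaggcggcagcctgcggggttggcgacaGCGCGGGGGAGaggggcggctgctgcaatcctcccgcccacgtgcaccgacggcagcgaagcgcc
Mag had 2 SOX cores, S100b had 1 SOX core, and Egr2 had 2 EGR sites that overlap each other. Prx and Pmp22 held neither motif in this window. Among 32536 promoters of the same length, 36.2% held a SOX core and 10.6% an EGR site, and no SOX core overlapped an EGR site in the 5 stretches. A match describes the letters and not a bound site.

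Some libraries stood apart from the rest of their group. Lists of marker genes for other cell types were summed as CPM in each library. GA of JGT02 100 mg/kg mouse 1 had a macrophage sum of 2341 CPM and a fibroblast sum of 3373 CPM, the highest of the GA libraries, where the medians over 43 libraries were 63.2 and 489 CPM. SO of JGT02 100 mg/kg mouse 5 had a macrophage sum of 2765 CPM and a fibroblast sum of 5345 CPM, the highest of the SO libraries, where the medians were 43 and 335 CPM. The library labelled SO of JGT02 400 mg/kg mouse 1 had a slow fibre sum of 579 CPM, against a median of 29076 CPM over SO libraries, and a fast fibre sum of 117401 CPM, within the range of GA libraries. Its slow fibre sum goes against its label. The SO libraries of non-treated mice 2 and 3 differed from each other far less than other replicates, with a chi-square per gene of 1.78 over 9705 genes, where the other 163 pairs within groups gave at least 4.53. That value is above 1 but cannot tell whether they come from separate mice. They were kept as separate libraries because the labels name them so, and each result that rests on them was also computed with the pair counted as 1. Where leaving out the 3 libraries that stood apart changes a count of calls, both counts are given.

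In SO, the 7 genes were higher after DEX than in non-treated mice, by 2.34-fold for Pmp22 to 4.28-fold for Prx, and all 7 passed the test. The rise lay mainly in 2 of the 4 DEX mice. In mice 1 and 3 the genes stood at 2.52 to 8.25 times the non-treated mean, while in mice 2 and 4 most stood near it. Of all genes tested in SO, 20.8% passed in either direction and 11.3% were higher, with a Benjamini-Hochberg adjusted p of edgeR's quasi-likelihood test at or under 0.05.

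The structural genes gave the clearest split between mice. Mbp had 161, 29.8, 153 and 19.1 CPM in SO of DEX mice 1 to 4, against 36.3, 21.5, 20.4, 24.9 and 29.2 CPM in SO of non-treated mice 1 to 5. Pmp22 had 244, 55.5, 176 and 42.1 CPM in the DEX mice, against 69.8, 53.1, 52.6, 41.7 and 59.0 CPM in the non-treated mice. Prx had 63.2, 10.9, 51.6 and 5.79 CPM in the DEX mice, against 11.1, 5.66, 5.47, 7.53 and 8.53 CPM in the non-treated mice. For each of the 3 genes, DEX mice 1 and 3 lay above every non-treated mouse and mouse 4 lay at the low end of the non-treated range or just below it, so the groups overlapped. Mag, at low counts, had 3.64, 1.36, 3.71 and 0.757 CPM in the DEX mice, against 0.987, 0.504, 0.401, 0.936 and 1.32 CPM in the non-treated mice. Here DEX mouse 2 also lay above the highest non-treated mouse, though narrowly.

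Sox10 had 11.2, 2.63, 9.53 and 3.10 CPM in SO of DEX mice 1 to 4, against 2.55, 1.82, 2.00, 1.91 and 1.66 CPM in SO of non-treated mice. It was the 1 gene of the 7 whose groups did not overlap, where 26.1% of all genes tested in SO did not overlap between these groups. S100b had 6.67, 2.76, 9.22 and 1.02 CPM in the DEX mice, against 1.46, 0.930, 1.53, 1.20 and 1.55 CPM in the non-treated mice, with mouse 4 in the non-treated range. Egr2 had 2.42, 0.721, 3.01 and 3.18 CPM in the DEX mice, against 1.02, 0.736, 0.620, 1.46 and 0.982 CPM in the non-treated mice. Its highest DEX library was mouse 4, in which the other 6 genes were at 0.721 to 1.56 times the non-treated mean. In that library the macrophage sum was 347 CPM, against 66.7, 41.2 and 54.8 CPM in DEX mice 1 to 3 and 34.0 to 77.4 CPM in non-treated mice. Its part in the Egr2 level was not tested.

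**Figure D1:**
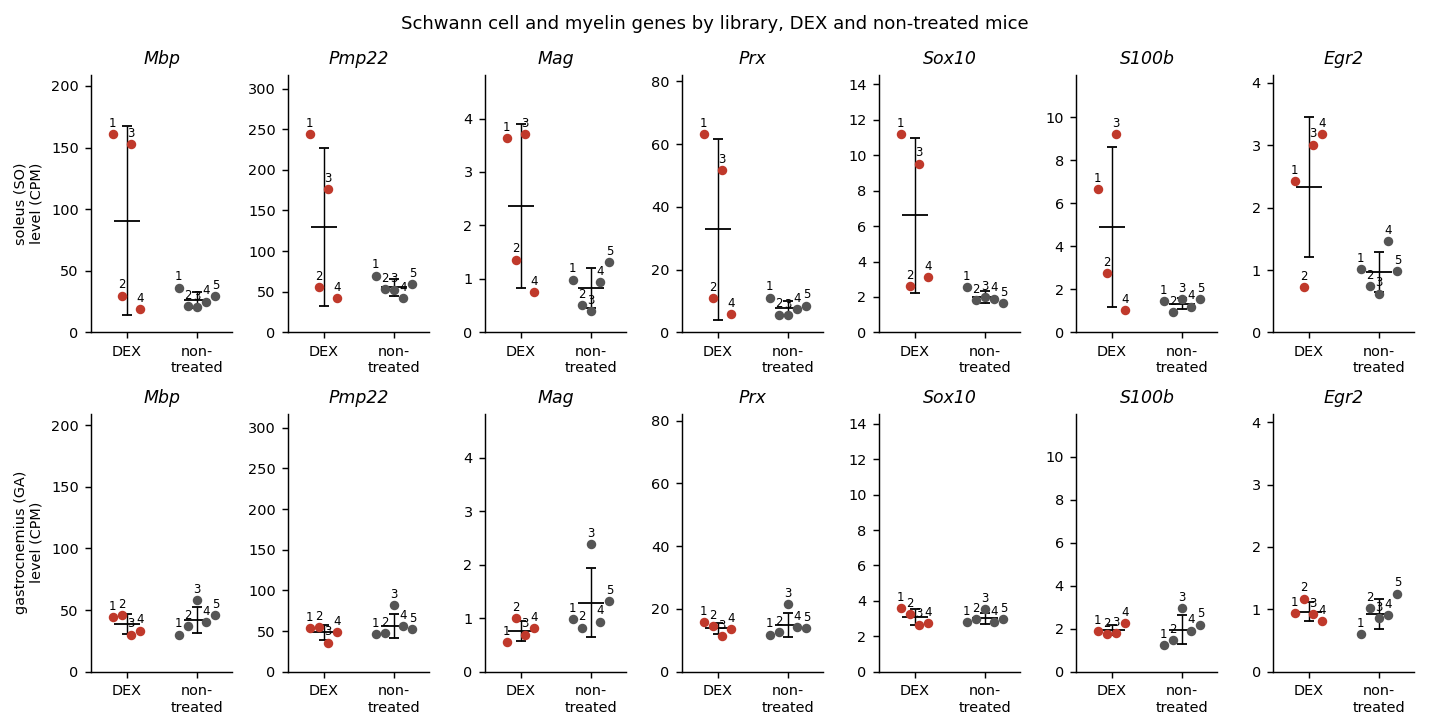
Level of each of the 7 genes in CPM, on linear axes from 0, in every library of DEX and non-treated mice of SO (upper row) and GA (lower row), numbered by mouse, with lines at the group mean and 1 SD on both sides (4 DEX and 5 non-treated mice). In SO, DEX mice 1 and 3 stand above all non-treated libraries for all 7 genes, while mice 2 and 4 lie mostly among them, and in GA the groups overlap.

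As group means, Mbp was at 90.5 ± 76.5 CPM in SO of DEX mice (SD, n = 4) and 26.5 ± 6.49 CPM in SO of non-treated mice (SD, n = 5). Prx was at 32.9 ± 28.8 CPM in DEX and 7.66 ± 2.33 CPM in non-treated mice. On the log2 scale with its standard error, the difference was 2.10 ± 0.52 for Prx (adjusted p = 0.00484), 1.87 ± 0.41 for S100b (adjusted p = 0.00157), 1.77 ± 0.49 for Mbp (adjusted p = 0.0100) and 1.72 ± 0.35 for Sox10 (adjusted p = 0.00101). It was 1.50 ± 0.43 for Mag (adjusted p = 0.0131), 1.27 ± 0.43 for Egr2 (adjusted p = 0.0336) and 1.23 ± 0.39 for Pmp22 (adjusted p = 0.0254). These calls rested on DEX mice 1 and 3. Without mouse 1, Prx, S100b and Sox10 still passed, at 1.57, 1.70 and 1.36, and without mouse 3 the same 3 genes passed, at 1.79, 1.37 and 1.49, where 18.4% and 15.2% of all genes passed. Without both mice none of the 7 passed, at log2 differences of -0.13 for Mbp, -0.19 for Pmp22, 0.33 for Mag, 0.11 for Prx, 0.51 for Sox10, 0.48 for S100b and 1.01 for Egr2. In that fit of the remaining libraries 12.7% of 15399 genes passed. Mice 1 and 3 were picked after they were seen to be high in these genes, so a loss of calls follows in part from that choice. The fit also leaves only mice 2 and 4 in the DEX group. It describes where the difference lay and is not a separate test. Egr2 lost its call without mouse 4 as well, at 1.09 with an adjusted p of 0.118. It lost the call in 7 of the 9 fits that each left out a library of these groups, so not only without DEX mice.

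A longer list of 24 other genes of myelinating Schwann cells moved with the 7. In SO, 22 of the 24 were higher in DEX than in non-treated mice and none was lower, with a median log2 difference of 1.57, against a median of 0.05 over all genes tested. Ugt8a, an enzyme of myelin lipid synthesis, rose by 2.52 ± 0.71 on the log2 scale, Ncmap, a membrane protein of non-compact myelin, by 2.44 ± 0.60, and the amino acid transporter Slc36a2 by 2.20 ± 0.53. In mice 1 and 3, 23 of the 24 genes of the other myelinating Schwann cell list each lay above their highest non-treated library, and in mice 2 and 4 it was 10 and 7. Over all genes tested, 30.6% to 38.0% lay above their highest non-treated library in a DEX library. Without mice 1 and 3, 1 of the 24 genes passed as higher, and the median was 0.15.

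Genes of the other cells of a nerve moved less. Of 16 genes of non-myelinating and repair Schwann cells, 11 were tested in SO and 3 were higher in DEX than in non-treated mice, with a median of 0.65. They were Cdh19, an adhesion molecule of Schwann cells and their precursors, at 1.18, the growth factor Gdnf at 0.93, and the adhesion molecule L1cam at 0.81. Ngfr, the receptor that Schwann cells raise after nerve injury, had 0.960, 0.678, 1.13 and 1.21 CPM in the DEX mice, against 1.23, 0.620, 0.437, 1.31 and 0.302 CPM in the non-treated mice, with the groups overlapping. Of 12 axon and neuron genes, 4 were tested and none passed, with a median of 0.17, and Chat and Slc18a3 had no count in any SO library. The bodies of motor and sensory neurons lie outside the muscle. Of 11 perineurium and endoneurium genes tested, 4 were higher and none lower, with a median of 0.37. Among them Itgb4, an integrin subunit that both perineurial and myelinating Schwann cells make, rose by 1.27, the tight junction gene Cldn1 by 1.02 and the glucose transporter gene Slc2a1 by 0.69. Itgb4 had 24.0, 10.6, 28.4 and 7.99 CPM in the DEX mice, against 7.69, 6.66, 6.23, 8.12 and 7.97 CPM in the non-treated mice.

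Marker genes of other cell types also differed between these libraries. Of the 10 adipocyte genes, 8 were higher in SO of DEX mice, with a median of 2.31, among them Lep at 3.40, Cidec at 3.21 and Adipoq at 2.81 on the log2 scale. Their summed level was 1017, 749, 999 and 331 CPM in DEX mice 1 to 4, against 232 to 321 CPM in non-treated mice, so DEX mouse 2 was also high in adipocyte genes while its myelin genes were near the non-treated level. Over the 8 DEX-injected groups together, Lep, Cidec and Adipoq were also higher than in non-treated mice. Their log2 differences were 3.56, 2.93 and 2.69 in SO and 2.26, 2.08 and 1.71 in GA. Of 12 endothelial genes, 6 were higher and none lower, with a median of 0.40, and their sum was 688, 815, 904 and 778 CPM in the DEX mice, against 504 to 626 CPM in non-treated mice. The perineurium and endoneurium sum was 84.1, 56.6, 83.8 and 71.8 CPM in the DEX mice, against 42.9 to 57.7 CPM in non-treated mice. The axon and neuron sum was 19.1, 24.3, 26.2 and 17.6 CPM in the DEX mice, against 16.6 to 24.0 CPM in non-treated mice. This sum holds only the 4 of 12 genes tested. Its median was 22.4 CPM over all SO libraries and 5.29 CPM over GA libraries, where 3 were tested. How well it measures the amount of axon was not tested. Of 10 tendon genes 1 was higher and 2 were lower, 3 of 8 mural cell genes were higher, and no gene of the slow fibre, fast fibre, fibroblast or macrophage lists passed. Of 12 denervation and synapse genes 2 were higher, among them the transcription factor gene Runx1 at 2.24. The labels do not say how much nerve or fat each piece of muscle held, and the part of such tissue in the SO difference was not tested.

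**Figure D2:**
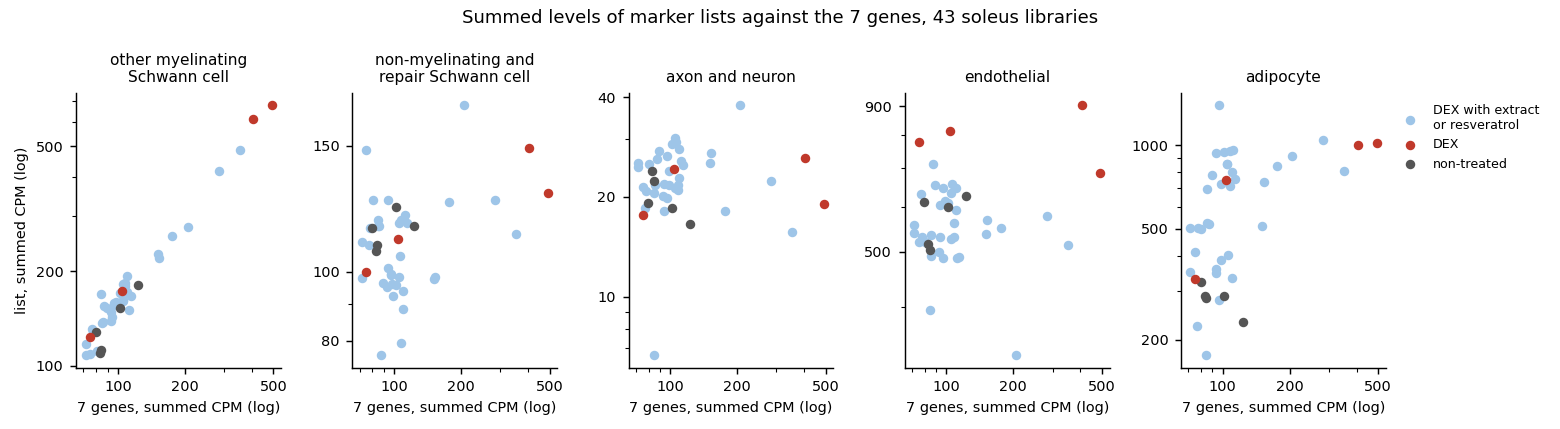
Summed CPM of 5 marker lists (vertical, log axis) against the summed CPM of the 7 genes (horizontal, log axis) in each of the 43 SO libraries, in 3 colours for DEX with extract or resveratrol, DEX alone and non-treated. The other myelinating Schwann cell genes lie close to a line with the 7 genes, with DEX mice 1 and 3 at its upper end at 677 and 614 CPM. The axon and neuron genes, of which 4 of 12 were tested, and the endothelial genes do not.

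In GA, none of the 7 genes passed between DEX and non-treated mice by edgeR's quasi-likelihood test, where 8.38% of all genes tested did. The groups overlapped for all 7, where 17.8% of the genes did not overlap. Mbp had 44.6, 46.0, 30.1 and 33.3 CPM in GA of DEX mice 1 to 4, against 30.1, 36.8, 57.8, 40 and 46.0 CPM in GA of non-treated mice. Prx had 15.8, 14.4, 11.4 and 13.6 CPM in the DEX mice, against 11.8, 12.7, 21.6, 14.3 and 13.9 CPM in the non-treated mice. Sox10 had 3.61, 3.27, 2.66 and 2.73 CPM in the DEX mice, against 2.78, 2.99, 3.52, 2.78 and 2.99 CPM in the non-treated mice. The highest library for Mbp and Prx was non-treated mouse 3. The log2 differences were -0.13 ± 0.29 for Mbp, -0.23 ± 0.23 for Pmp22, -0.10 ± 0.27 for Prx, 0.03 ± 0.19 for Sox10, -0.02 ± 0.26 for S100b and 0.05 ± 0.34 for Egr2, each about as large as its standard error or smaller.

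Mag was the gene of the 7 with the largest difference in GA. It had 0.555, 0.996, 0.695 and 0.809 CPM in DEX mice, against 0.986, 0.826, 2.39, 0.938 and 1.32 CPM in non-treated mice, with non-treated mouse 3 far above the rest. Its log2 difference was -0.75 ± 0.28, with an adjusted p of 0.0944. It was the 1 gene of the 7 with an unadjusted p under 0.05, and DESeq2 also passed none. Without the GA library that stood apart, it was -0.74 ± 0.28 with an adjusted p of 0.0435, in a fit where 26.4% of all genes passed. Of the 24 other myelinating Schwann cell genes, 1 was higher in GA of DEX mice, Slc36a2 at 0.95 (adjusted p = 0.0270), none was lower, and the list's median was -0.10. Adipocyte genes were higher in GA as well, 7 of 10 with a median of 1.28, while 4 of 12 endothelial and 6 of 10 tendon genes were lower.

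The DEX response was then compared between the muscles in 1 fit of all 86 libraries. It was higher in SO than in GA for 6 of the 7 genes, where 8.36% of all genes passed in either direction and 3.81% as higher in SO. The difference of the 2 log2 responses was 2.23 ± 0.52 for Mag (adjusted p = 0.00419), 2.18 ± 0.60 for Prx (adjusted p = 0.0156), 1.88 ± 0.58 for Mbp (adjusted p = 0.0312) and 1.44 ± 0.46 for Pmp22 (adjusted p = 0.0401). It was 1.87 ± 0.49 for S100b (adjusted p = 0.0103) and 1.68 ± 0.41 for Sox10 (adjusted p = 0.00594). For Egr2 it was 1.20 ± 0.55, which did not pass (adjusted p = 0.159). Of the 24 other myelinating Schwann cell genes, 14 had a higher response in SO and none a lower one, with a median of 1.51. These calls again rested on SO of DEX mice 1 and 3. Without mouse 1, Mag, S100b and Sox10 passed, at 1.92, 1.66 and 1.27, without mouse 3 Mag and Sox10 passed, at 1.88 and 1.41, and without both none passed. Of all genes 9.39% passed without mouse 1, 5.86% without mouse 3 and 4.76% without both. With a block for each group and mouse number, which treats same-numbered SO and GA libraries as 1 animal, 2 of the 7 genes passed. The share of all genes in that fit is not given here.

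**Figure D3:**
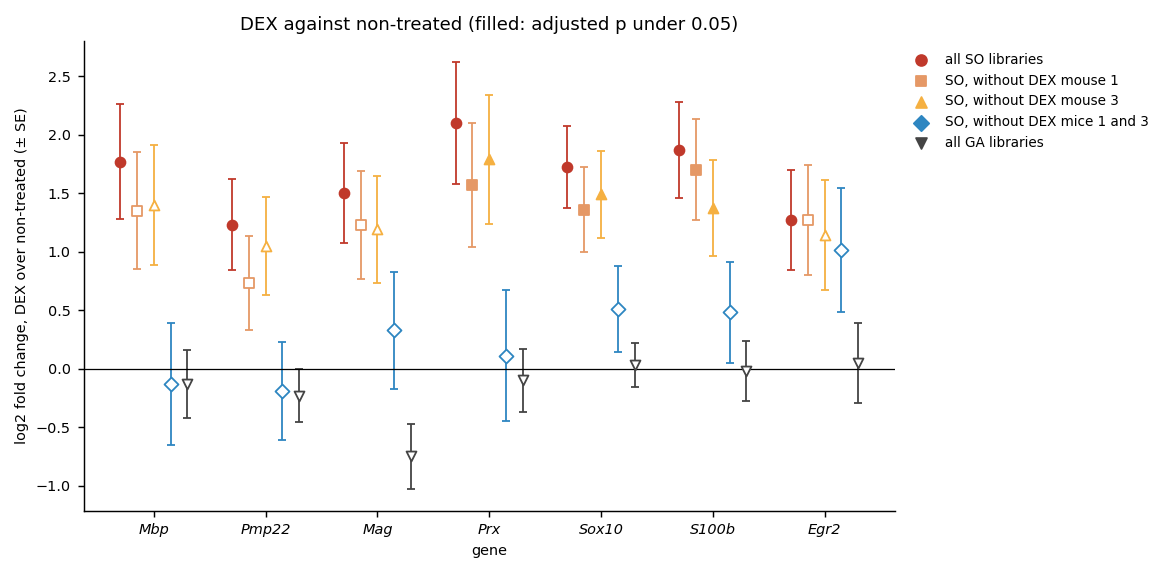
Log2 fold change of DEX over non-treated mice for each of the 7 genes, with 1 standard error on both sides, in SO with all libraries, without DEX mouse 1, without DEX mouse 3 and without both, and in GA, where filled symbols passed the test. In SO the values lie between 1.23 and 2.10 with all libraries and between -0.19 and 1.01 without both mice, and in GA between -0.75 and 0.05.

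In non-treated mice, Prx and Sox10 were lower in SO than in GA, with log2 differences of -1.01 ± 0.40 and -0.65 ± 0.28 (adjusted p = 0.0345 and 0.0468). Of all genes tested 45.8% differed between the muscles and 23.4% were lower in SO, so 2 of 7 is near the share over all genes. Mag, Mbp and S100b had log2 differences of -0.69, -0.73 and -0.60 that did not pass, and Pmp22 and Egr2 had -0.10 and -0.00. With SO of non-treated mice 2 and 3 counted as 1 library, none of the 7 passed, and with a library left out at a time 0 to 2 did. The GA and SO libraries of non-treated mice also lie in different runs of the listed order, described below. Muscle and run thus coincide in this contrast, and with the run as a term none of the 7 passed.

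Against the DEX group, 19 of the 49 pairs of gene and treatment in SO were lower, and the log2 differences of all 49 were below 0. Over all genes and the 7 treatments, 9.09% of such pairs passed in either direction and 5.03% as lower. The 7 comparisons share the same 4 DEX libraries, 2 of which are the high mice 1 and 3, so they are not independent of each other. Without both of these mice none of the 49 passed. The count was also lower in other fits, with 2 of 49 in fits of only the groups compared, 10 with no filter on low counts and 11 with the replicate block. Without the 3 libraries that stood apart it was 36. The share of all gene and treatment pairs in these other fits is not given here. For a different contrast, the mean of the JGT groups, 39.6% of all genes passed in either direction without the 3 libraries, against 13.9% with all libraries.

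Mbp had 21.2, 19.4, 62.2, 24.2 and 43.5 CPM in SO of JGT02 100 mg/kg mice 1 to 5, and 26.9, 125, 24.6, 26.2 and 23.8 CPM in those of JGT02 400 mg/kg. It had 22.0, 25.2, 27.7, 27.6 and 17.4 CPM in JGT03 100 mg/kg mice, and 21.3, 27.7, 28.2, 34.0 and 26.4 CPM in JGT03 400 mg/kg mice. It had 29.8, 28.5, 29.1, 18.2 and 33.6 CPM in JGT04 100 mg/kg mice, and 23.4, 30.9, 96.3 and 26.5 CPM in JGT04 400 mg/kg mice. In resveratrol mice Mbp had 22.9, 41.7, 27.9, 43.2 and 24.2 CPM, against 161, 29.8, 153 and 19.1 CPM in DEX mice. Most treated libraries thus lay within or close to the range of non-treated mice, and mouse 2 of JGT02 400 mg/kg and mouse 3 of JGT04 400 mg/kg lay far above it.

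Prx followed the same libraries. It had 4.54, 5.15, 19.2, 6.44 and 15.8 CPM in SO of JGT02 100 mg/kg mice, and 10.1, 38.7, 8.04, 9.30 and 9.38 CPM in JGT02 400 mg/kg mice. In JGT03 100 mg/kg mice it had 7.68, 10.2, 8.59, 9.59 and 5.03 CPM, and in JGT03 400 mg/kg mice 6.11, 10.3, 10.7, 8.0 and 8.69 CPM. In JGT04 100 mg/kg mice it had 11.1, 10.1, 9.99, 6.68 and 10.3 CPM, in JGT04 400 mg/kg mice 8.27, 10.4, 33.9 and 8.04 CPM, and in resveratrol mice 7.61, 15.6, 10.4, 18.9 and 8.92 CPM. The DEX mice had 63.2, 10.9, 51.6 and 5.79 CPM, so mouse 4 of the DEX group lay below most treated mice.

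By gene, Mag was lower than in DEX in 6 of the 7 treatments, with log2 differences over all 7 of -1.94 to -0.98. Mbp and Prx were lower in 4 treatments each, with ranges of -1.91 to -1.0 and -2.0 to -1.12. S100b was lower in 3 (-1.68 to -0.78) and Sox10 in 2 (-1.40 to -0.63). Pmp22 and Egr2 passed in none, at -1.24 to -0.76 and -1.03 to -0.25, with lowest adjusted p of 0.0516 and 0.132 in the fit of all libraries. By treatment, 5 genes passed in JGT03 100 mg/kg and 5 in JGT04 100 mg/kg, the same Mag, Mbp, Prx, S100b and Sox10 in both, where 5.07% and 5.59% of all genes were lower. In JGT02 100 mg/kg 3 genes passed (Mag, Prx and S100b; 4.02% of all genes lower), in JGT03 400 mg/kg 3 (Mag, Mbp and Prx; 2.08%), in resveratrol 2 (Mag and Mbp; 7.56%), in JGT02 400 mg/kg Mag alone (7.89%) and in JGT04 400 mg/kg none (3.01%). The groups with the fewest calls, JGT02 400 mg/kg and JGT04 400 mg/kg, each held a high library. Without DEX mouse 1 the number of pairs that passed was 3 of 49 and without DEX mouse 3 it was 1, while without DEX mouse 2 or 4, which lie low, it was 31 and 29. Without mouse 2 of JGT02 400 mg/kg it was 30, and without mouse 5 of JGT02 100 mg/kg, which stood apart, it was 37. The share of all gene and treatment pairs is not given here for these fits. For the mean of the JGT groups, 12.3% of all genes passed without DEX mouse 1, 8.07% without mouse 3 and 6.2% without mouse 4. It was 13.9% with all libraries. Without all 3 libraries that stood apart, all 7 genes, Pmp22 and Egr2 included, were lower in JGT02 100 mg/kg, JGT03 100 mg/kg, JGT03 400 mg/kg and JGT04 100 mg/kg, 6 were lower in resveratrol, and 1 was lower in each of JGT02 400 mg/kg and JGT04 400 mg/kg. Many more of all genes passed in that fit too, 39.6% for the mean of the JGT groups.

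**Figure D4:**
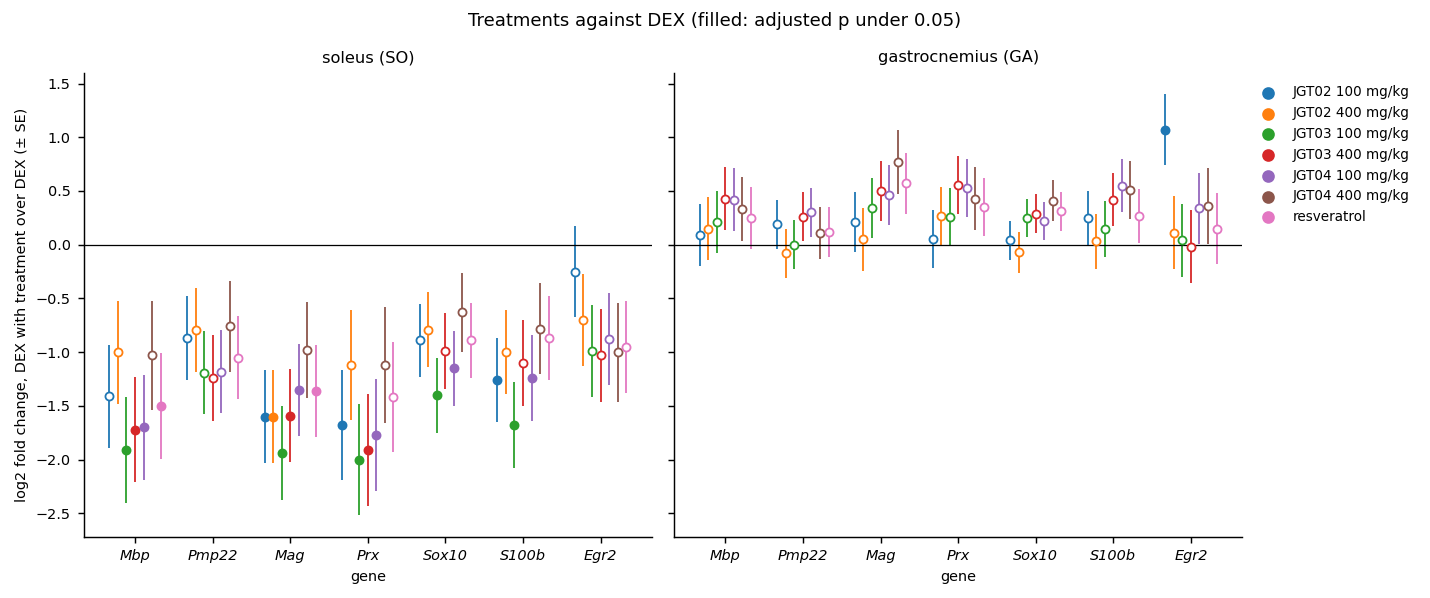
Log2 fold change of each of the 7 treatments over DEX for each of the 7 genes in SO (left) and GA (right), with 1 standard error on both sides and filled symbols for pairs that passed the test. All 49 SO values are below 0 and 19 passed, while the GA values lie between -0.08 and 1.07 and 1 passed.

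The mean of the 6 JGT groups was lower than DEX in SO for 6 of the 7 genes, where 13.9% of all genes passed in either direction and 8.64% as lower. It was -1.60 ± 0.36 for Prx (adjusted p = 0.0024), -1.51 ± 0.31 for Mag (adjusted p = 0.000973), -1.46 ± 0.34 for Mbp (adjusted p = 0.00331), -1.18 ± 0.29 for S100b (adjusted p = 0.00504), -1.01 ± 0.29 for Pmp22 (adjusted p = 0.0163) and -0.98 ± 0.26 for Sox10 (adjusted p = 0.00883). Egr2 was at -0.81 ± 0.32 and did not pass (adjusted p = 0.0853). Of the 24 other myelinating Schwann cell genes, 20 were lower and none was higher, with a median of -1.20, among them Ugt8a at -1.96 and Fa2h, an enzyme of myelin lipid synthesis, at -1.61. Of the endothelial list 9 of 12 genes were lower, and no adipocyte gene passed. Without DEX mouse 1 or without DEX mouse 3, 2 of the 7 genes passed, where 12.3% and 8.07% of all genes did. Without both mice none passed, where 8.49% of all genes did, and the values turned to 0.44 for Mbp, 0.40 for Pmp22, 0.38 for Prx, 0.23 for Sox10 and 0.21 for S100b, with -0.34 for Mag and -0.55 for Egr2.

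The order in which the table lists the libraries holds 3 runs between which the level of Cebpb, a gene outside the set, steps. These runs are not named in the labels. With the run as a term in the fit, which was added after the data were seen, none of the 7 genes passed for the mean of the JGT groups in SO, and 3 of the 49 pairs passed, all in JGT02 100 mg/kg, whose libraries lie in the same run as those of DEX. Of all genes, 0.513% passed for the mean of the JGT groups with this term, against 13.9% without it. In SO, JGT02 400 mg/kg was the only group split between runs, after its mouse 3. The groups listed before it, DEX included, lay in the same run, and those listed after it lay in the next. The term thus rests on that group, which holds a library that stood apart and the high mouse 2. Run and treatment nearly coincide, so this fit cannot tell them apart.

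In GA, 1 of the 49 pairs passed against DEX, Egr2 in JGT02 100 mg/kg at 1.07 (adjusted p = 0.0356, 8.72% of all genes higher in this comparison), and all 49 log2 differences lay between -0.08 and 1.07 with a median of 0.26. Over all genes and treatments in GA, 2.36% of the pairs passed. Egr2 had 5.20 CPM in GA of JGT02 100 mg/kg mouse 1, the library that stood apart, and 0.933 to 1.41 CPM in the other 4 mice of the group, against 0.809 to 1.17 CPM in DEX mice. Without that library Egr2 did not pass. The mean of the 6 JGT groups passed for none of the 7 genes in GA, at 0.13 to 0.39, where 1.26% of all genes passed. None of the 7 had an unadjusted p under 0.05 there, and DESeq2 passed none.

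Dose was compared as 400 mg/kg against 100 mg/kg over the 3 extracts. In SO no gene of the 14811 passed by edgeR's quasi-likelihood test, and the lowest unadjusted p of the 7 was 0.0641 for S100b. DESeq2 passed none of the 7 in either muscle. The log2 difference was 0.43 for S100b, with an interval of -0.01 to 0.87 (1.96 standard errors on both sides), 0.42 for Mbp, with an interval of -0.11 to 0.95, 0.43 for Prx, 0.34 for Sox10, 0.24 for Mag, 0.15 for Pmp22 and -0.20 for Egr2. In GA the values were -0.33 for Egr2 to 0.14 for Prx, none passed or had an unadjusted p under 0.05, and 0.200% of all genes passed.

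Over the 8 DEX-injected groups together, 2 of the 7 genes were higher than in non-treated mice in SO, where 17.8% of all genes passed in either direction and 9.05% as higher. These were Sox10 at 0.88 ± 0.27 (adjusted p = 0.0215) and S100b at 0.88 ± 0.31 (adjusted p = 0.0448). Sox10 had a highest non-treated SO library of 2.55 CPM, and its level ranged from 1.86 to 11.2 CPM over the SO libraries of DEX-injected mice. The structural genes had smaller values that did not pass, 0.72 for Prx, 0.49 for Mbp, 0.34 for Pmp22 and 0.20 for Mag, and Egr2 had 0.55. With SO of non-treated mice 2 and 3 counted as 1 library, neither Sox10 nor S100b passed, nor did they with the run as a term. When 1 of the 43 libraries was left out at a time, S100b did not pass in 15 of the fits and Sox10 in 3. In GA none of the 7 passed, at -0.39 for Mag to 0.31 for Egr2, where 21.2% of all genes did. By unadjusted p under 0.05 it was 1, Mag, and by DESeq2 none.

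High levels of the 7 genes in SO were thus found in single mice of several groups. Among the 43 SO libraries, DEX mice 1 and 3 and JGT02 400 mg/kg mouse 2 were in the top 5 for all 7 genes, and JGT04 400 mg/kg mouse 3 for 6 of them. JGT02 400 mg/kg mouse 2 stood at 4.71 times the non-treated mean for Mbp, 3.14 for Pmp22, 2.05 for Mag, 5.05 for Prx, 3.96 for Sox10, 3.25 for S100b and 2.86 for Egr2. JGT04 400 mg/kg mouse 3 stood at 3.64 times for Mbp, 2.51 for Pmp22, 2.42 for Mag, 4.43 for Prx, 3.50 for Sox10, 3.27 for S100b and 1.96 for Egr2. In both libraries every one of the 7 genes lay above its highest non-treated library, as did 23 and 22 of the 24 other myelinating Schwann cell genes, where 26.3% and 30.5% of all genes tested did. In resveratrol mice 4 and 2, it was 23 and 19 of the 24, where it was 30.9% and 28.5% of all genes. In JGT02 100 mg/kg mice 3 and 5 it was 18 and 20 of the 24, where it was 22.7% and 44.5% of all genes, and mouse 5 is a library that stood apart. The adipocyte sum was 810 CPM in JGT02 400 mg/kg mouse 2 and 1043 CPM in JGT04 400 mg/kg mouse 3. It was higher still, at 1392 CPM, in JGT04 400 mg/kg mouse 4, whose member sum of 96.5 CPM lay in the non-treated range of 79.7 to 123 CPM. Their axon and neuron sums were 15.7 CPM in JGT02 400 mg/kg mouse 2 and 22.4 CPM in JGT04 400 mg/kg mouse 3, against 16.6 to 24.0 CPM in non-treated mice.

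**Figure D5:**
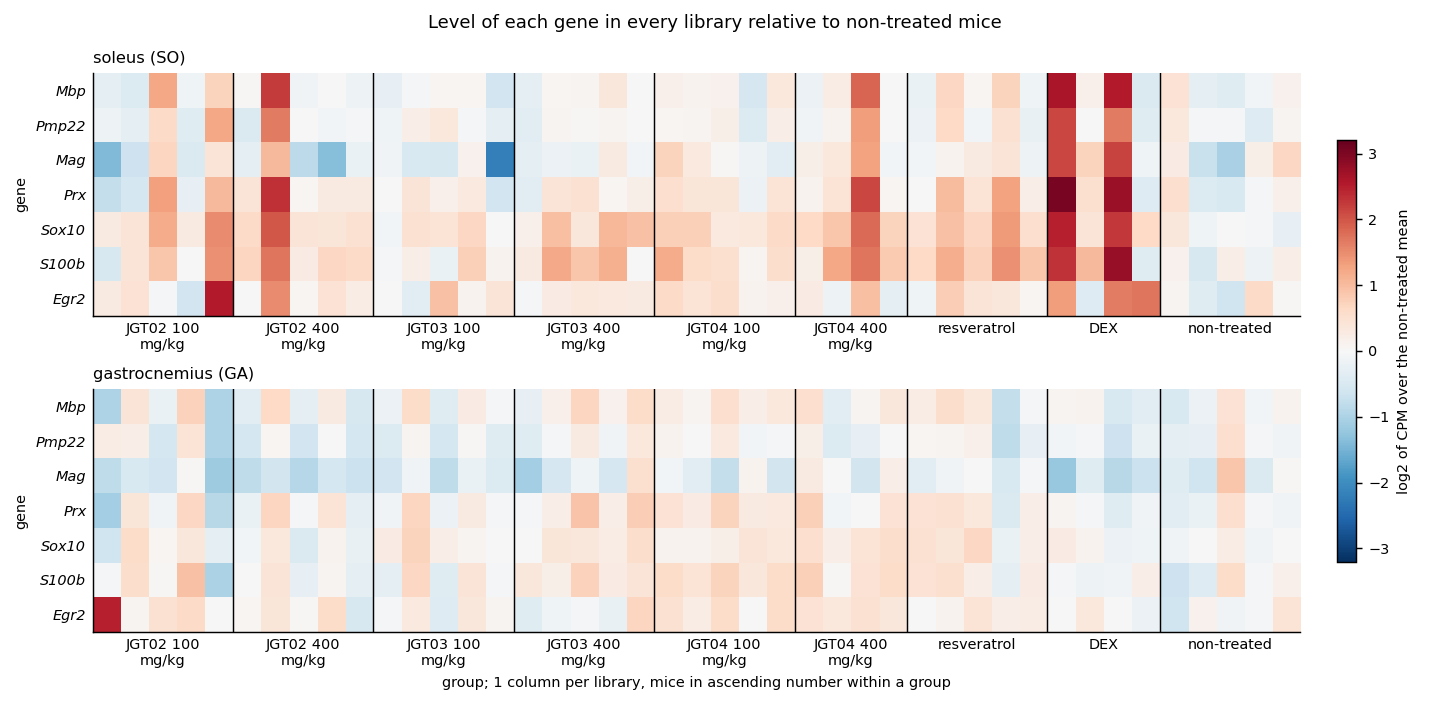
Level of each of the 7 genes in every library of SO and GA as colour, the log2 ratio to the mean of the non-treated libraries of the muscle from -3.2 to 3.2, with groups in blocks and genes down the page. In SO the high columns are JGT02 400 mg/kg mouse 2, JGT04 400 mg/kg mouse 3 and DEX mice 1 and 3. In GA no library lies above the highest non-treated library for all 7 genes, though JGT04 400 mg/kg mouse 1 does for 5 and ranks 2 to 10 over the 7.

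Over all libraries of a muscle together, the levels spread more widely in SO than in GA. Over the 43 SO libraries Mbp ran between 17.4 and 161 CPM with a median of 27.6, and Prx between 4.54 and 63.2 CPM with a median of 9.38. Over the 43 GA libraries Mbp ran between 21.1 and 69.9 CPM with a median of 46.0, and Prx between 7.03 and 27.8 CPM with a median of 17.0. The coefficient of variation was 87.3% in SO and 28.4% in GA for Mbp, and 56.4% in SO and 20.2% in GA for Sox10. For Egr2 it was 63.5% in SO and 58.2% in GA, which in each muscle includes a JGT02 100 mg/kg library with high macrophage genes, at 5.59 CPM in SO and 5.20 CPM in GA. The medians of Mbp and Prx were thus higher in GA than in SO, while the highest libraries were in SO. Within groups, Mbp varied by 84.5% in SO and 20.8% in GA for DEX. It was 98.1% and 35.8% for JGT02 400 mg/kg, and 78.7% and 25.2% for JGT04 400 mg/kg. These groups hold high SO libraries. Elsewhere SO was not regularly wider, at 24.5% and 24.8% for non-treated and 16.5% and 25.6% for JGT03 400 mg/kg, but 20.6% and 12% for JGT04 100 mg/kg.

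Within a muscle, the genes other than Egr2 varied together among mice of the same group. Pearson's r of log2 CPM less the group mean was computed for the 21 pairs of genes in each muscle over 43 libraries, which share depth and scaling. In SO the 15 pairs without Egr2 had r of 0.73 to 0.98 with a median of 0.84, and in GA 0.48 to 0.96 with a median of 0.78. Mbp and Prx had the closest relation, with r of 0.98 and Spearman's rho of 0.95 in SO, and r of 0.96 and rho of 0.96 in GA (permutation p = 1e-05 for each, the smallest that the resamples can give). The 6 pairs with Egr2 had r of 0.37 to 0.58 in SO and -0.13 to 0.44 in GA. By a permutation test within groups with 100000 resamples, adjusted over the 42 pairs, all 15 pairs without Egr2 passed in each muscle, and of the 6 with Egr2 4 passed in SO and 1 in GA. For each pair, the 2 libraries farthest from the median of its first-listed gene were then left out, so they can differ between pairs. Egr2, listed last, never chose them, and the group means were not computed again. Without them, the pairs without Egr2 had r of 0.66 to 0.97 in SO and 0.45 to 0.96 in GA. Their relation thus did not rest on these 2 libraries alone. For Egr2 it changed with them. All 6 of its pairs then passed in SO, with r of 0.52 to 0.54, and 3 passed in GA, with r of 0.11 to 0.41 over the 6. Prx and Egr2 in GA had r of -0.00 with all libraries and 0.41 without the 2, and Sox10 and Egr2 had -0.13 with all libraries and 0.38 without the 2.

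No relation between the muscles was found among mice of the same group. For libraries of the same group and mouse number, r between SO and GA was 0.02 for Mbp, -0.23 for Pmp22, -0.22 for Mag, -0.02 for Prx, 0.04 for Sox10, -0.15 for S100b and -0.19 for Egr2 over 43 pairs. None passed a permutation test within groups with 100000 resamples, with p adjusted over the 7 genes of 0.76 to 0.91. Spearman's rho was -0.24 to 0.02. The labels give the same mouse numbers in both muscles but do not say that a number is the same animal.

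Genes outside the 7 were ranked by r with the mean of the 7 genes, over 43 libraries per muscle and among 11860 genes, as a description of these libraries. In SO the closest included the myelin genes Mal (r = 0.972), Cnp (0.957) and Cldn19 (0.949), the axonal transport motor gene Kif1a (0.952) and the phosphatase gene Dusp15 (0.945). In GA they included Vat1l (r = 0.914), Kif1a (0.903), Ugt8a (0.903), Plekha4 (0.888) and Mal (0.871). Mal and Kif1a were thus among the 6 closest in both muscles. Kif1a had 8.74, 1.82, 6.21 and 1.29 CPM in SO of DEX mice 1 to 4, against 1.80, 1.32, 1.02, 1.91 and 1.62 CPM in SO of non-treated mice, and so was high in the same 2 mice.

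By list, the median r with the mean of the 7 genes was 0.90 in SO and 0.78 in GA for the other myelinating Schwann cell genes (20 of 24 compared). It was 0.48 in SO and 0.13 in GA for the non-myelinating and repair Schwann cell genes, and -0.08 in SO and -0.02 in GA for the 2 axon and neuron genes compared. It was 0.23 in both muscles for the perineurium and endoneurium genes, of which Itgb4 had 0.80 in both. It was 0.41 in SO and 0.33 in GA for adipocyte genes, and -0.09 in SO and -0.11 in GA for endothelial genes, where the median over all genes was -0.04 in SO and -0.00 in GA.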

How the data were processed

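The authors deposited expected counts per gene symbol for 86 muscle RNA libraries. Per the submitters' processing notes they used FastQC 0.11.9, Trim Galore 0.6.5, STAR 2.7.3a, RSEM 1.3.3 and GRCm38; annotation and strand setting are not given in the sources used here. Libraries were directional and paired-end, per the labels' protocols, which speak of 5 groups where the samples form 9. Of the values 92.0% were whole, and 0 per-sample columns were left unused. Expected counts were rounded, filtered with filterByExpr, scaled with TMM and tested with edgeR 4.0.16 (quasi-likelihood) in R 4.3.3, with 9 groups per muscle and 1 fit of both muscles for contrasts between them. P-values were adjusted by Benjamini-Hochberg over all genes tested, at 0.05. CPM used TMM-scaled library sizes and a prior count of 2 on the log2 scale for correlations. Python 3.11.15 with scipy 1.17.1 and matplotlib 3.10.9 made the rest, and the tests were tested on simulated data. The labels name a mouse per library, and p-values measure the spread between these samples.

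The members and the 13 marker lists were chosen with earlier results of these data known. Genes named beyond the 7 were, per list and comparison, up to 3 with the largest change among those that passed at a mean of at least 1 CPM, and per muscle the 6 most alike by r. Ngfr, Itgb4 and Kif1a are given per library after their values were seen. Of listed symbols 2 were found under older names. Alternatives were DESeq2 1.42.0, DESeq2 size factors in edgeR, all genes kept, a replicate block by mouse number, fits of only the groups compared, each library left out, other correlation settings and, added after the data were seen, fits without the 3 libraries that stood apart, without SO of DEX mice 1 and 3, with SO of non-treated mice 2 and 3 as 1 library, or with a term for the run in the listed order. In the fit of both muscles the replicate block was by group and mouse number. Gene positions are from GENCODE vM21. Mbp and Sox10 have no upstream sequence here. Some listed genes are withheld and are not named.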

Additional observations from a re-analysis of the deposited data

Results flagged for a closer look

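For each of the 7 genes, muscle and group, 126 sets in all, the highest or lowest library was tested against the others with Dixon's ratio at its 95% critical value. It stood out in 19 sets. Chance gives about 1 in 20 for a single set. The 7 genes share libraries and vary together, so the 126 sets are not independent, and the count cannot be set against that rate. In SO of JGT02 400 mg/kg, mouse 2 was the highest for 6 genes, at 125 CPM for Mbp, 173 for Pmp22, 38.7 for Prx, 7.89 for Sox10, 4.34 for S100b and 2.76 for Egr2. In SO of JGT04 400 mg/kg, mouse 3 was the highest for Mbp at 96.3 CPM, Pmp22 at 139, Prx at 33.9 and Sox10 at 6.96. In SO of JGT04 100 mg/kg, mouse 4 was the lowest for Pmp22 at 41 CPM and Prx at 6.68 CPM. In GA of non-treated mice, mouse 3 was the highest for Pmp22 at 82.2 CPM, Prx at 21.6 and Sox10 at 3.52. Egr2 stood out alone in SO of JGT02 100 mg/kg mouse 5 at 5.59 CPM, GA of JGT02 100 mg/kg mouse 1 at 5.20, GA of JGT03 400 mg/kg mouse 5 at 1.50 and, as the lowest, SO of JGT03 400 mg/kg mouse 1 at 0.929. SO of DEX mice 1 and 3 did not stand out by this ratio, since they lie close to each other.

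The response to DEX differed between the muscles by edgeR's interaction contrast for 6 genes, at 2.23 for Mag, 2.18 for Prx, 1.88 for Mbp, 1.87 for S100b, 1.68 for Sox10 and 1.44 for Pmp22 (SO minus GA, log2 scale), and in none without SO of DEX mice 1 and 3.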

How the results depend on the processing

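Most calls in SO depended on DEX mice 1 and 3, and the cause was not tested. These mice were picked after their levels were seen, so the fits without both are a description and not a separate test. Of 43 called gene differences under 1005 alternative settings, 730 kept direction and call, 258 lost the call and 17 changed direction. Counts of members called are for SO unless GA is named. Without SO of DEX mice 1 and 3, counts were 0 of 7 for DEX against non-treated, 1 for the 8 DEX-injected groups, 0 of 49 for the treatments, 0 for the mean of JGT and 0 for the response between muscles. Values that changed sign there were Mbp -0.13 and Pmp22 -0.19 for DEX against non-treated, Mbp -0.01 between the muscles, and, against DEX, Prx 0.30 and S100b 0.13 in JGT02 100 mg/kg, Mbp 0.18 and Prx 0.08 in JGT03 400 mg/kg, Mbp 0.20, Prx 0.21, S100b 0.15 and Sox10 0.05 in JGT04 100 mg/kg, Mbp 0.40 in resveratrol, and Mbp 0.44, Pmp22 0.40, Prx 0.38, S100b 0.21 and Sox10 0.23 for the mean of JGT. With the run term, which nearly coincides with the groups, counts were 0 for the 8 groups, 3 for the treatments, 0 for the mean of JGT and 0 for SO against GA in non-treated mice. Without the 3 libraries that stood apart, they were 36 for the treatments, and in GA 1 for DEX against non-treated and 0 for the treatments. With SO of non-treated mice 2 and 3 as 1, they were 0 for the 8 groups and 0 for SO against GA. With no filter on low counts they were 1, 10 and 1 for the 8 groups, the treatments and SO against GA. In fits of only the groups compared they were 2 for the treatments, 2 for the treatments in GA and 4 for SO against GA.

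With each library left out in turn, members called ranged from 3 to 7 for DEX against non-treated, 0 to 2 for the 8 groups, 1 to 37 for the treatments, 2 to 7 for the mean of JGT, 0 to 2 for SO against GA and 2 to 6 for the response between muscles. In GA they ranged from 0 to 1 for the treatments and stayed at 0 for the other contrasts, and dose stayed at 0 in both muscles. The median correlation of same-numbered libraries was -0.16 to 0.23 between groups. Between muscles it was 0.02 for the same number and 0.0 for different numbers. These values cannot tell whether a number names the same animal in both muscles. With the replicate block, counts were 1 for the 8 groups, 11 for the treatments, 0 for the treatments in GA and 2 for the response between muscles. Of the 7 correlations between muscles 0 passed in all 3 alternatives, and of the 42 within a muscle 35 passed, with 38 by Spearman's rho, 39 without the 2 farthest libraries and 35 at a prior count of 0.5. How far depth limits Mag, with 4 to 95 counts per SO library, was not tested.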
